A study of Mus musculus with 15 samples.

Results

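An intron of Clcn5, the X-linked gene of an endosomal chloride and proton exchanger, holds a cluster of microRNA (miRNA) hairpins, and 6 mature miRNAs cut from them were followed in mouse plasma during sepsis. They are mmu-miR-532-5p, mmu-miR-532-3p, mmu-miR-362-5p, mmu-miR-362-3p, mmu-miR-501-3p and mmu-miR-500-3p, written here without the species prefix, and were found by name among the 1205 entries of the count table, 1 row for each, and all 6 were among the 426 entries tested. The list holds neighbours in the genome, but its members were chosen by a reading of these data in which their levels and arm ratios in the 2 groups of mice were already known, so the difference between the groups is given for them as a description, and nothing is read from a member's side of a threshold in the fit across all entries.

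Extracellular miRNAs were sequenced from platelet-free plasma of male, wild type C57BL/6J mice 24 h after surgery. There were 9 libraries from mice with cecal ligation and puncture (CLP), in which the cecum is tied and pierced so that gut bacteria enter the abdomen, and 6 libraries from mice with a sham operation. Each library was made from 100 ng of RNA, drawn from 100 µl of plasma. Whether each library came from its own mouse is not stated in the labels, and a p-value here reflects only the variation among libraries, which may be technical.

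A miRNA hairpin is cut from a longer transcript and then trimmed to a short duplex, whose strands are named 5p and 3p after their arm. Usually one strand is kept by an Argonaute protein and the other is degraded, so the ratio of the arms can differ between cells even though both come from the same precursor. The kept strand finds messenger RNAs mainly through bases 2 to 8, its seed. Plasma miRNAs are carried by vesicles and protein complexes shed from many tissues and blood cells, and in such a mixture fewer cells of a source and less RNA per cell cannot be told apart.

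The 5 hairpins of the cluster found in RefSeq lie on the minus strand of chromosome X between 7237683 and 7248497 (GRCm38, the mm10 build), over 10815 bases. In order of transcription they are Mir532 (7248402 to 7248497), Mir188 (7247989 to 7248056), Mir362 (7241982 to 7242046), Mir501 (7241243 to 7241351) and Mir500 (7237683 to 7237774). In GENCODE M21 each lies within an intron, and in no exon, of all 3 Clcn5 transcripts that span it. RefSeq gave a mature sequence for 5 of the 6 members, all but miR-532-5p. They are shown 5′ to 3′ with the seed in capitals, because the seeds show which members can be expected to share targets:
miR-532-3p: cCUCCCACacccaaggcuugca
miR-362-5p: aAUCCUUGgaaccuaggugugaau
miR-362-3p: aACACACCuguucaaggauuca
miR-501-3p: aAUGCACCcgggcaaggauuug
miR-500-3p: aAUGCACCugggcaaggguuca

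The 5 sequences carry 4 seeds, with miR-500-3p and miR-501-3p sharing AUGCACC. These 2 miRNAs differ at 4 of 22 positions, U9C, G18A, C21U and A22G, counted from the 5′ end with the base of miR-500-3p first. Among the other entries that had a sequence in RefSeq, none had that seed. The seed of miR-362-3p was shared with miR-329-3p, which reached at most 16 counts in any library and was not tested. Of the 5 sequences miR-532-3p was the richest in G and C (63.6%), followed by miR-500-3p and miR-501-3p (54.5% each), miR-362-5p (41.7%) and miR-362-3p (40.9%).

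Libraries held 6181056 to 13576482 counts in CLP and 5274676 to 10702028 in sham. The 6 members took 0.410% ± 0.102 of the counts in CLP (SD, n = 9) and 0.386% ± 0.0696 in sham (n = 6), and all of their values were whole numbers. Markers of red cells took 8.59% to 36.1% of the counts in CLP and 17.7% to 48.8% in sham, and those of hepatocytes 0.191% to 7.27% in CLP and 0.316% to 1.63% in sham. The 4 entries listed as platelet-rich miRNAs together took 0.561% to 1.19% in CLP and 4.16% to 5.13% in sham. Which of these 4 entries carried that difference was not tested, nor was whether their reads came from platelets. Striated muscle markers took 0.473% to 3.91% in CLP and 0.0437% to 0.759% in sham, and myeloid markers 0.155% to 0.434% in CLP and 0.165% to 0.229% in sham. Lymphocyte markers took 0.0498% to 0.158% in CLP and 0.131% to 0.209% in sham, and endothelial markers 0.159% to 0.449% in CLP and 0.305% to 0.516% in sham. No marker was at 0 in all libraries, and the part of these sources, other than red cells, in the differences between the groups was not tested.

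The mean levels of the members in CLP plasma ran from 2.16 CPM (counts per 1000000 of the library size as scaled by TMM) to 4161 CPM, and the arms differed between the groups in different directions. In CLP plasma miR-532-3p was lower, and miR-362-3p and miR-500-3p were higher, than in sham plasma, while miR-362-5p, miR-501-3p and miR-532-5p differed by at most 1.28-fold between the groups. Of the 6 members, 2 were higher and 1 was lower in CLP at an adjusted p under 0.05 (edgeR's quasi-likelihood test, adjusted by Benjamini-Hochberg over all tested entries), where 47.2% of all tested entries were past that threshold, 25.4% higher and 21.8% lower. Since the members were listed with this contrast known, nothing is read from that count. Their median log2 fold change was 0.33, beside 0.11 over all tested entries and -0.11 over 40 tested entries of other chromosome X hairpins, of which 8 were higher and 8 lower.

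**Figure D1:**
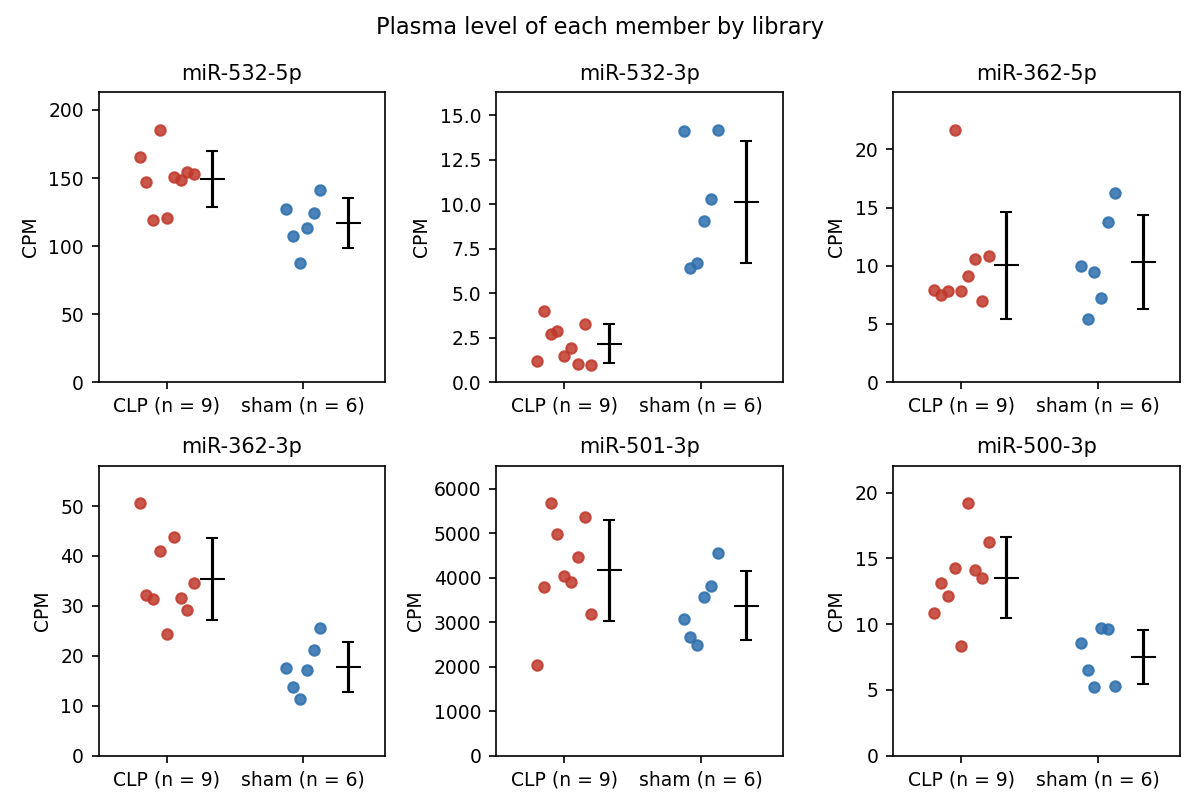
Level of each member in CPM (linear axes from 0) in every library, 9 CLP on the left and 6 sham on the right of each panel. Points are libraries and bars are the mean ± SD. The groups do not overlap for miR-532-3p, which was at most 4.01 CPM in CLP and at least 6.41 CPM in sham.

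The first hairpin transcribed, Mir532, gave 1 member whose groups did not overlap, the 3p arm, and none of the other 5 members did so. miR-532-3p, which in mouse heart muscle cells has been linked to the apoptosis repressor ARC, had a lowest, median and highest value of 0.945, 1.90 and 4.01 CPM in CLP and of 6.41, 9.65 and 14.2 CPM in sham. The highest CLP library lay under the lowest sham library, a separation that 11.3% of all tested entries showed in that direction. The log2 fold change was -2.23 ± 0.34 (SE), and -2.41 with the log2 ratio of miR-451a to miR-23a-3p, an index of red cell RNA, as a covariate. The arm was scarce in CLP, where 6 to 31 reads were counted, against 44 to 147 in sham. For the lowest library, CLP 9, the 95% exact Poisson interval ran from 0.347 to 2.06 CPM. For the highest CLP library, CLP 2, it ran from 2.51 to 6.07 CPM. That overlapped the interval of the lowest sham library, sham 2, from 4.76 to 8.45 CPM. Such intervals cover counting error only. The abundance filter asked for 1.37 counts per 1000000 of the unscaled library total in at least 6 libraries. In CLP 6 of 9 libraries reached that level, and in sham all 6 did.

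miR-532-5p, the other strand of the same hairpin and in human gastric cancer cells a repressor of the transcription factor RUNX3, showed no such separation. Its lowest, median and highest values were 119, 151 and 185 CPM in CLP and 87.8, 119 and 141 CPM in sham. The groups overlapped, with CLP 3 and CLP 5 inside the sham range and 7 CLP libraries above it. The log2 fold change was 0.35 ± 0.16 (SE), and it was 0.14 with scaling by library size alone, which shifted the median of all tested entries by -0.23.

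Because both strands of a hairpin are read in the same library, their ratio is free of the scaling between libraries. For each library it was taken as the log2 of the counts of 1 arm over the other after adding 0.5 to each. The ratio of miR-532-5p to miR-532-3p averaged 6.23 ± 0.77 (SD, n = 9) in CLP and 3.58 ± 0.31 (n = 6) in sham, a difference of 2.65 on the log2 scale. At the median library there were 77.9 reads of the 5p arm for 1 of the 3p arm in CLP, and 12.2 in sham. The ratio was lowest in CLP 2 (35.9 to 1) within CLP and highest in sham 2 (16.6 to 1) within sham, so the groups did not overlap. Among the 93 hairpins with both arms tested, 19.4% had groups that did not overlap. The median size of the difference over those hairpins was 0.86, and that of Mir532 ranked 12 in size.

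**Figure D2:**
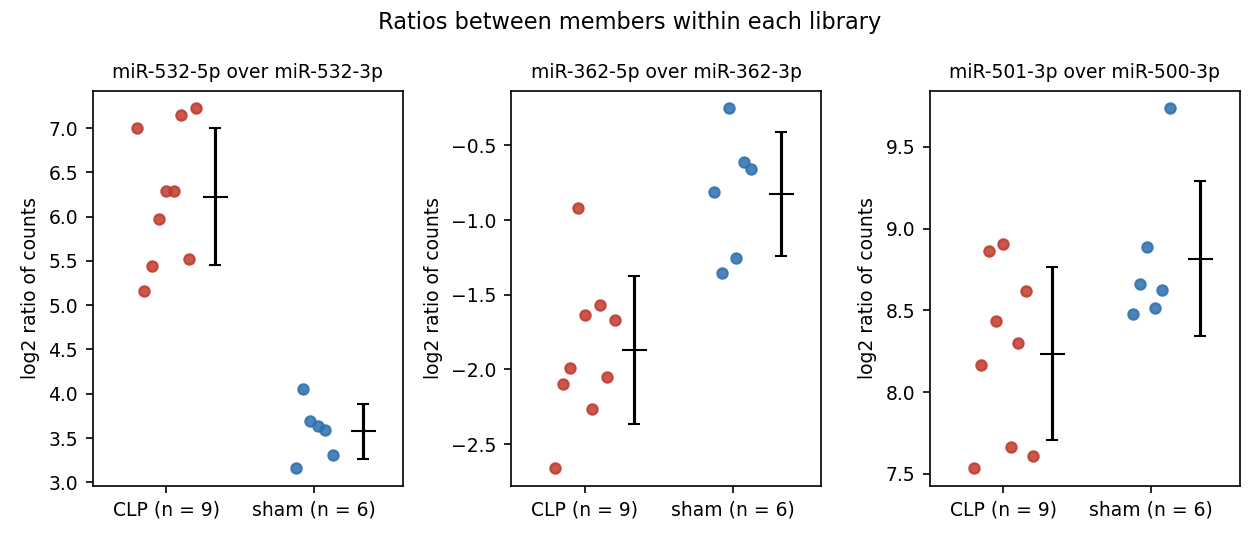
Log2 ratio of the counts of 2 members in every library, with 9 CLP libraries on the left and 6 sham libraries on the right of each panel. Points are libraries and bars are the mean ± SD. The ratio of the Mir532 arms separates the groups (lowest in CLP 5.17, highest in sham 4.06), while the other 2 ratios overlap.

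Mir362 leaned the other way, to the 3p arm, and on average more so in CLP. Its hairpin is shown with both arms in capitals, because the ratio compares those 2 stretches (chrX:7241982-7242046, minus strand, GRCm38):
Mir362 hairpin: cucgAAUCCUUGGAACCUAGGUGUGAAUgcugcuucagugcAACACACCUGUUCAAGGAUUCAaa
miR-362-3p had a lowest, median and highest value of 24.4, 32.3 and 50.5 CPM in CLP and of 11.3, 17.4 and 25.6 CPM in sham. Of the CLP libraries 8 lay above every sham library, and CLP 5 lay just under sham 6. The log2 fold change was 0.99 ± 0.21 (SE), a 1.99-fold higher level in CLP.

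For miR-362-5p, which represses the deubiquitinase CYLD in human cancer cells, the values were 7.01, 7.93 and 21.7 CPM in CLP and 5.38, 9.71 and 16.2 CPM in sham. The ranges overlapped, with 1 library, CLP 4, above all others. The log2 fold change was -0.04 ± 0.29 (SE), and -0.30 without CLP 4. The ratio of miR-362-5p to miR-362-3p was -1.87 ± 0.50 (SD, n = 9) in CLP and -0.82 ± 0.41 (n = 6) in sham on the log2 scale, a difference of -1.05. At the median library the 3p arm had 3.97 reads for each read of the 5p arm in CLP and 1.67 in sham. CLP 4, at 1.89, lay within the sham range of 1.19 to 2.55, and the other CLP libraries lay above it. In size that difference ranked 38 among the 93 hairpins.

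**Figure D3:**
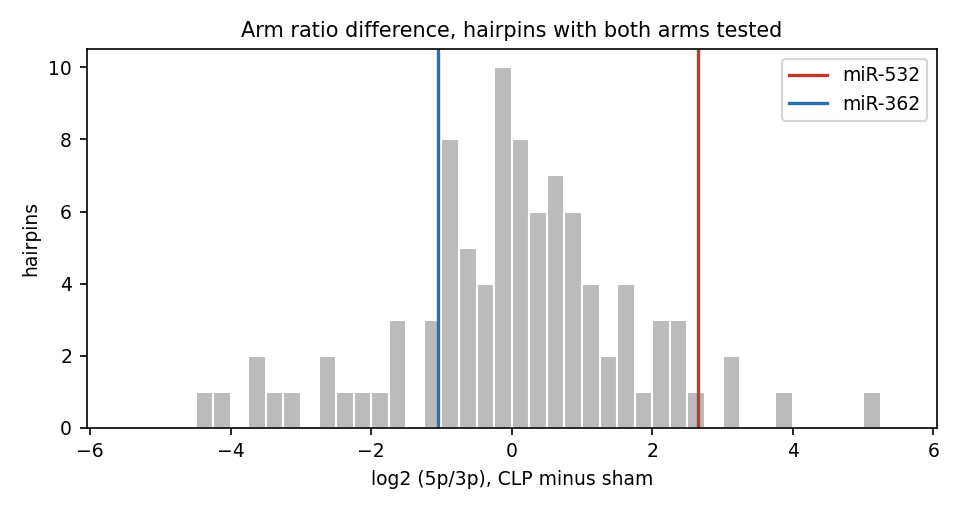
Difference between CLP and sham in the mean log2 ratio of 5p to 3p counts, for 93 hairpins with both arms tested. Bars count hairpins, and the lines mark miR-532 at 2.65 and miR-362 at -1.05. Both lie inside the spread of the other hairpins, which runs to 5.18 (miR-574).

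miR-501-3p dominated the cluster in both groups. In rodent hippocampal neurons it is known to repress the glutamate receptor subunit GluA1. It made up 94.8% ± 2.17 of the reads of the 6 members in CLP (SD, n = 9) and 95.3% ± 0.479 in sham (n = 6), and ranked 30 of 1205 entries by mean CPM. Its lowest, median and highest values were 2034, 4038 and 5669 CPM in CLP and 2497, 3326 and 4561 CPM in sham. CLP 1 lay below and CLP 3, 4 and 8 above the whole sham range. The log2 fold change was 0.31 ± 0.22 (SE). CLP 1 also had the lowest share of miR-501-3p in the cluster, 89.6%.

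miR-500-3p carries the same seed as miR-501-3p at a far lower level. Its values were 8.37, 13.5 and 19.2 CPM in CLP and 5.19, 7.56 and 9.70 CPM in sham (lowest, median and highest). Of the CLP libraries 8 exceeded every sham library, and CLP 5 lay within the sham range. The log2 fold change was 0.86 ± 0.23 (SE), a 1.81-fold higher level in CLP.

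Reads of miR-501-3p outnumbered those of miR-500-3p at the median library by 316 to 1 in CLP and by 400 to 1 in sham. The log2 ratio was 8.24 ± 0.53 (SD, n = 9) in CLP and 8.82 ± 0.47 (n = 6) in sham, and the groups overlapped. The difference of -0.58 was -0.40 without sham 6, which held 852 reads of miR-501-3p for each read of miR-500-3p. How many reads the authors' counting could have exchanged between these 2 sequences is not known. Counted as 1 entry they gave a log2 fold change of 0.31 ± 0.21 (SE). That value is set almost wholly by miR-501-3p, so it cannot show whether reads of miR-501-3p were counted as miR-500-3p.

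**Figure D4:**
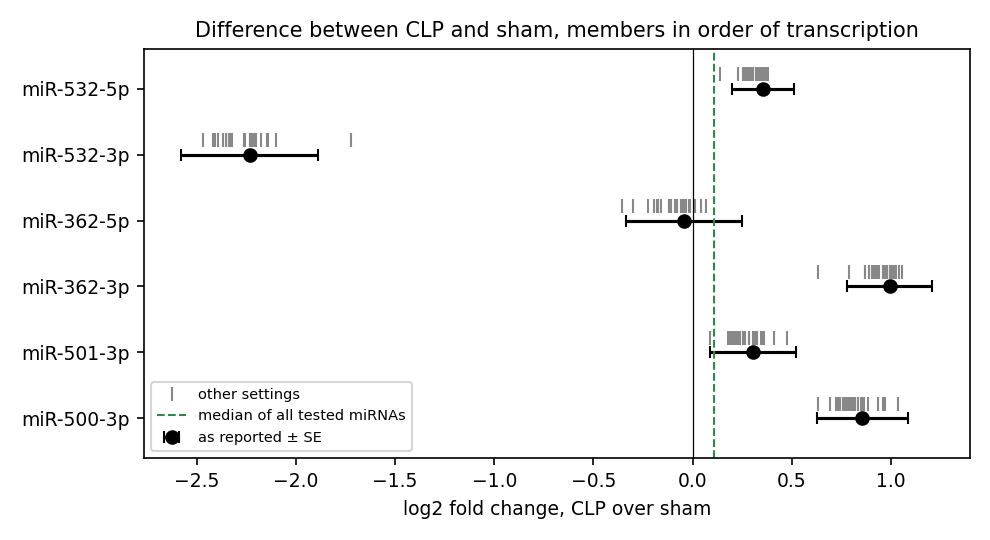
Log2 fold change of each member, CLP over sham, in order of transcription. Points with bars are the reported value ± SE, grey ticks are the values under each alternative setting, and the dashed line is the median of all 426 tested miRNAs (0.11). miR-532-3p lies far to the left at -2.23, while miR-362-3p and miR-500-3p lie to the right at 0.99 and 0.86.

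Base composition moved with the groups. The slope of log2 CPM on the GC content of the mature sequence, per 10 percentage points and relative to the mean library, was -0.16 ± 0.18 (SD, n = 9) in CLP and 0.23 ± 0.09 (n = 6) in sham. With that trend removed over the 373 tested entries with a sequence, the log2 fold change was -1.72 for the GC-rich miR-532-3p, 0.63 for miR-362-3p, 1.04 for miR-500-3p, 0.48 for miR-501-3p and -0.35 for miR-362-5p. The order of the 5 members was then miR-500-3p, miR-362-3p, miR-501-3p, miR-362-5p and miR-532-3p from high to low. The arms of Mir362 are nearly equal in GC content, and their fold changes differed by -0.98 with the trend removed and by -1.04 without. For the arms of Mir532 no such value could be given, because miR-532-5p had no sequence. The part of base composition in the difference between those arms was therefore not tested.

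The other arms of these hairpins were rare, and 0 of the 4 with a row passed the filter. miR-501-5p had 24 reads over the 9 CLP libraries and 31 over the 6 sham libraries, so nearly all reads of Mir501 came from its 3p arm. miR-500-5p had 7 reads in CLP, in 2 libraries, and 0 in sham. There 3 counts would have been 0.0717 per 1000000 of the pooled, unscaled counts of the 6 sham libraries. miR-188-5p, which in mouse bone marrow stromal cells shifts fate from bone to fat, had 39 reads in CLP and 8 in sham, and miR-188-3p had 35 in CLP and 44 in sham. The log2 ratio of miR-188-5p to miR-188-3p averaged -0.31 ± 1.87 (SD, n = 9) in CLP and -2.29 ± 3.25 (n = 6) in sham, a difference that did not pass an exact two-sided permutation test (p = 0.157 over 5005 splits, 1 hairpin tested). Each arm had only 0 to 18 reads in a library. The difference of 1.97 was 1.31 with a pseudocount of 2 (exact permutation p = 0.102), 1.12 with the number of the library as a replicate block over 12 libraries (exact permutation p = 0.562) and 2.90 without sham 4 (exact permutation p = 0.0355).

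Within the CLP group, where the contrast that chose the members plays no part, no pair of members was correlated past the threshold. Of 15 pairs 11 had a Pearson r above 0 on log2 CPM, and 0 passed an exact permutation test after adjustment over the pairs, by Pearson's r or Spearman's rho, with 1 at an unadjusted p under 0.05. That pair was miR-532-5p with miR-362-3p (r = 0.68, exact permutation p = 0.0426, adjusted 0.486; rho = 0.60, exact p = 0.0968, adjusted 0.398), and r was 0.50 without the 2 libraries farthest from the median of miR-532-5p. The arms of Mir532 had r = 0.03 (exact permutation p = 0.945, adjusted 0.945, with rho = -0.03, exact permutation p = 0.948, adjusted 0.948), and r = 0.13 without the 2 farthest. miR-532-3p had only 6 to 31 reads in these libraries, and the part of counting error in that r was not tested.

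Among the 6 sham libraries 14 of the 15 pairs had r above 0, and 2 passed an adjusted p of 0.05 by exact permutation of r but 0 by rho. These were miR-362-3p with miR-501-3p (r = 0.965, exact permutation p = 0.00417, adjusted 0.0417; rho = 0.94, exact p = 0.0167, adjusted 0.0833) and miR-532-5p with miR-362-3p (r = 0.95, exact permutation p = 0.00556, adjusted 0.0417; rho = 0.94, exact p = 0.0167, adjusted 0.0833). Without the 2 sham libraries farthest from the median of the first member r was 0.90 and 0.80 for these pairs, in that order. In sham the arms of Mir532 had r = 0.87 (exact permutation p = 0.0153, adjusted 0.0764) and rho = 0.94 (exact permutation p = 0.0167, adjusted 0.0833). Their r was 0.94 without the 2 sham libraries farthest from the median of miR-532-5p. For all 5 members but miR-500-3p, sham 6, the deepest sham library, had the highest value. Points share the scaling of their library, and whether the correlations differ between the groups was not tested.

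**Figure D5:**
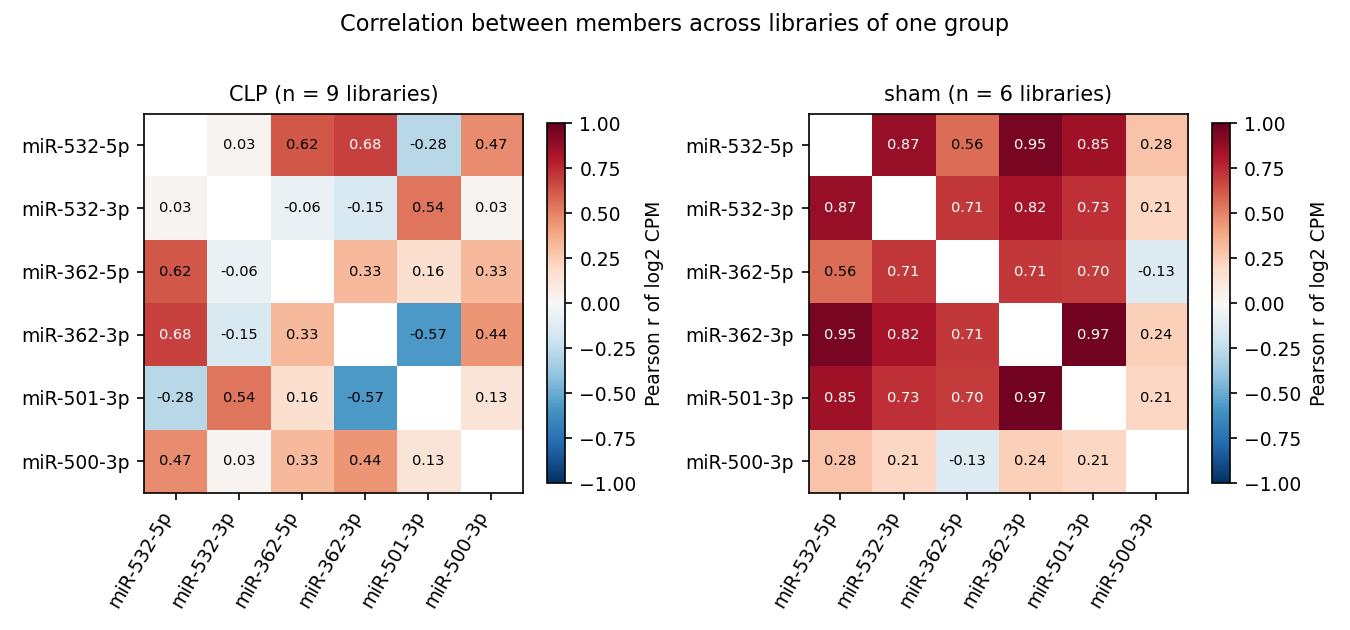
Pearson r of log2 CPM between each pair of members over the 9 CLP libraries (left) and the 6 sham libraries (right), with the value printed in each cell and colour from -1 to 1. Values range from -0.57 to 0.68 in CLP and from -0.13 to 0.965 in sham (printed as 0.97).

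Likeness to other miRNAs was measured as Pearson's r of log2 CPM centred within each group over the 15 libraries, among 420 tested entries outside these hairpins, and is given as a description. miR-501-3p was most like miR-30d-5p (r = 0.92), followed by miR-351-5p and miR-676-3p (0.89 each). The closest entry was miR-10a-3p to miR-532-5p (0.81), miR-191-3p to miR-532-3p (0.76), miR-28a-3p to miR-362-3p (0.78), miR-3068-3p to miR-362-5p (0.75) and miR-133a-3p to miR-500-3p (0.71). The closest entries of the 6 members were all different. By the same measure miR-362-3p was closer to a fellow member, miR-532-5p (0.81), than to any entry outside the hairpins, and each of the other members was closest to the outside entry named, with miR-532-5p about as close to miR-362-3p as to miR-10a-3p.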

How the data were processed

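The authors deposited an expected count of reads per mature miRNA and library, not scaled for depth, made with exceRpt, a small RNA pipeline, per the name of the file. The submitters' processing notes give mm10 as the build. Aligner, mismatches allowed and miRNA release are not given in the sources used here. Of all values 4.56% were not whole, but 0 members had such a value. Per the labels' protocols, adapters were ligated to both ends, and how far ligation differed between sequences was not tested. Counts are relative amounts within a library.

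Counts were rounded and tested with edgeR 4.0.16 (R 4.3.3) by a robust quasi-likelihood F test over all 15 libraries with filterByExpr (minimum count 10), TMM, no covariate and Benjamini-Hochberg adjustment over 426 entries, with a threshold of 0.05. Standard errors were the size of the log2 fold change over the square root of F. Log2 ratios and log2 CPM in correlations used a pseudocount of 0.5, and the likeness of miRNAs a prior count of 2. Permutation tests were exact and two-sided (SciPy 1.17.1, Python 3.11.15). Between libraries, chi-square per degree of freedom was at least 432 within CLP and 282 within sham, so none was a copy. DESeq2 1.42.0 and limma 3.58.1 (voom) were alternatives. The members and lists were chosen with earlier results of these data known. Named were all members, the other arms of their hairpins, entries sharing a seed, the 3 entries most like the most abundant member and the 1 most like each other member. Mir660 was on the list of hairpins and is not analysed here. Sequences and positions came from RefSeq (GRCm38.p6) and GENCODE M21.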

Additional observations from a re-analysis of the deposited data

Results flagged for a closer look

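In 2 of 20 groups of libraries examined, 1 library lay far from the others by Dixon's ratio, the gap to the nearest library over the whole range, of which chance alone gives about 1 in 20. In CLP 4 the level of miR-362-5p was the highest of 9 CLP libraries, at 21.7 CPM where the next was 10.9 CPM (Dixon's ratio 0.616 on log2 CPM). In sham 6 the log2 ratio of miR-501-3p to miR-500-3p was the highest of 6 sham libraries, at 9.74 where the next was 8.89 (Dixon's ratio 0.673).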

How the results depend on the processing

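Leaving out 1 library at a time gave log2 fold changes of -2.42 to -2.14 for miR-532-3p, 0.87 to 1.06 for miR-362-3p, 0.69 to 0.94 for miR-500-3p, 0.26 to 0.37 for miR-532-5p, 0.18 to 0.35 for miR-501-3p and -0.30 to 0.07 for miR-362-5p, the last crossing 0. The difference in log2 ratio was 2.53 to 2.78 for the arms of Mir532, -1.17 to -0.93 for those of Mir362, -0.67 to -0.40 for miR-501-3p over miR-500-3p, and 1.39 to 2.90 for those of Mir188, where it passed only without sham 4 (2.90, exact permutation p = 0.0355). The count of all entries past the threshold was 184 to 213, with 95 to 104 higher and 82 to 110 lower. The fold change of miR-362-3p was 0.63 with the GC trend removed. Of all entries 307 passed with no filter (167 lower). With a stricter filter of 10 CPM, taken without TMM scaling, in 6 libraries, 71 were higher, and miR-532-3p did not meet that filter. Scaling by library size gave 90 higher and 126 lower against 108 and 93. Libraries of the same number did not deviate together (r from -0.151 to -0.0314, 0 of 6 correlating best with their own number). With the number as a replicate block over 12 libraries 152 entries passed, 71 of them higher, and the log2 fold change was -2.18 for miR-532-3p, 1.01 for miR-362-3p and 0.73 for miR-500-3p. Counting depth limits miR-532-3p in CLP, where it had 6 reads at the lowest; no other member had under 10 reads in any library.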
